A study of Homo sapiens with 4 samples.

Results

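The cytosolic ribosomal protein genes were followed in Huh7, a human hepatoma cell line, after delivery of a lentivirus that expresses ISL1 or of a blank lentivirus. ISL1 is a homeodomain transcription factor with LIM domains, known from development of the heart, motor neurons and pancreatic islets. The genes were taken by symbol, as RPL or RPS followed by a number with its usual suffix, RPSA, and RPLP0 to RPLP2. This gave 85 of the 19782 symbols listed in any table, 52 of the large (60S) and 33 of the small (40S) subunit. All 4 tables listed 83 of them, 51 large and 32 small, and all 83 passed the filter on low values. RPL3L, a muscle paralog of RPL3, was listed only in the replicate 1 tables, at 0.0200 RPKM in the control library and at the table's lowest value, 0.0001, in the ISL1 library. The remaining gene was listed only in the replicate 2 tables and is not reported here.

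There were 4 libraries, 2 of ISL1 virus and 2 of blank virus, all from cells at passage 3 and all from total RNA. Replicate numbers come from the sample titles, and each number holds 1 library per group, called a pair here. The title of the second ISL1 library reads ISL2, and it was kept with ISL1 because the design names no other virus. No label says that the duplicates are separate cultures, and p-values then measure the spread between these libraries only, which may be technical. RPKM divides a gene's reads by its transcript length and by the depth of the library. Levels can be compared between genes only as far as the lengths used are right. Lengths worked out from the values, as described below, were the same in both replicate numbers for 57 of 83 genes. They differed for the others, such as RPL13 (4672 and 1296 bases), and rankings of genes by level are as deposited.

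The ribosome is built from ribosomal RNA and about equal numbers of copies of nearly every ribosomal protein. The large subunit holds the peptidyl transferase centre and a flexible stalk that recruits elongation and initiation factors, and the small subunit decodes the mRNA. The mRNAs of these proteins are among the most abundant in growing cells. Most begin with a C followed by a run of pyrimidines, the terminal oligopyrimidine (TOP) tract, through which mTOR signalling and LARP1 control their translation. In humans, reduced dosage of several of these genes causes Diamond-Blackfan anemia, a failure of red cell production.

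The TOP tract was looked up at the annotated transcription starts, since it is the sequence feature the group is best known for and the rule for choosing the genes did not use it. The RefSeq table (GRCh38.p14) gave a start for 67 of the 85 genes. A C at the start followed by at least 4 further pyrimidines, read on the transcript's strand, was found for 47 of the 67 (70.1%), 29 of 42 large and 18 of 25 small subunit genes. The same letters were found at a start of 5.14% of all 27305 symbols in that table, and of 6.32% of the 15517 with a RefSeq mRNA. The windows below run from 10 bases before the start to 20 bases from it, with the tract in capitals. The 3 stalk proteins are shown because the stalk is described as a group below. The small subunit proteins RPS3 and RPS6 are shown because they differed by much and by little between the replicate numbers as deposited.
RPLP0: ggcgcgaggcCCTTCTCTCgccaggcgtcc
RPLP1: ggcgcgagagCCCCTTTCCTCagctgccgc
RPLP2: tcggcgccttCCTTTTCCTCCCTgtcgcca
RPS3: cgagccacttCCTTTCCTTTCagcggagcg
RPS6: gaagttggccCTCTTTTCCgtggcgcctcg
These windows lie at chr12:120201092-120201121 (minus strand, RPLP0), chr15:69452808-69452837 (plus, RPLP1), chr11:809957-809986 (plus, RPLP2), chr11:75399508-75399537 (plus, RPS3) and chr9:19380217-19380246 (minus, RPS6).

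RPL22L1 and RPS27L with their parent genes, and RPS26, are shown because the paralogs and RPS26 stood on the higher side in a pair described below.
RPL22: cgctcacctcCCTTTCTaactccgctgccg
RPL22L1: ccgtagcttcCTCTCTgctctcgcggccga
RPS27: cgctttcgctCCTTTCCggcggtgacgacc
RPS27L: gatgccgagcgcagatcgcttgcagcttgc
RPS26: acataacctcgattttcttccgccatccgg
They lie at chr1:6199576-6199605 (minus, RPL22), chr3:170870176-170870205 (minus, RPL22L1), chr1:153990752-153990781 (plus, RPS27), chr15:63157458-63157487 (minus, RPS27L) and chr12:56041908-56041937 (plus, RPS26). RPL22L1 carried such a tract like its parent, while the window of RPS27L held none at the annotated start. The 47 genes with the tract had a median difference between ISL1 and blank virus of -0.17 in pair 1 and -0.01 in pair 2 on the log2(RPKM + 1) scale. The 20 with an annotated start and no tract had medians of -0.08 and -0.12. They include the paralogs RPL7L1, RPL10L, RPL26L1 and RPS27L, described below. A C was required at the annotated base itself, and in RPL19, for example, a pyrimidine run spans that base without a C there. The part of start annotation and of paralogs in these medians was not tested.

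The tables differed between the replicate numbers. Library depths, worked out from the whole-read steps of the RPKM values, were 32289510 and 37134267 reads in replicate 1 (control, ISL1) and 34274524 and 29429964 in replicate 2. A single read in a 1 kb transcript was worth 0.0269 to 0.0340 RPKM, and a count of 0 allowed up to 0.0808 to 0.102 RPKM (3 reads; counting error only). ISL1 itself went from 0.0454 to 8.22 RPKM in pair 1 and from a listed 0 to 1801 in pair 2. The summed level of 10 hepatocyte markers was 20956 and 21789 RPKM in pair 1 and 23674 and 10784 in pair 2 (control, ISL1), and HNF4A and SERPINA1 stood at no more than 2.00 RPKM in replicate 1. The second control held 1002 RPKM of 5 erythroid markers, against 0.0001 to 1.399 in the other libraries, and HBB was listed at 0 in the second ISL1 library. The second ISL1 library held 49.9 RPKM of 6 heart muscle markers, against 0.746 to 1.23 elsewhere. Summed leukocyte markers were 50.3 to 117 RPKM, fibroblast markers 2.21 to 5.57 and endothelial markers 1.49 to 10.6. The part of these markers in the results below was not tested.

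Ribosomal protein mRNAs made up 19.6% of the summed RPKM of the first control table, 17.1% of the first ISL1 table, 19.8% of the second control table and 19.7% of the second ISL1 table. The first ISL1 library lay lowest, and the other 3 were close to each other. The median gene of the group stood at 481, 423, 1069 and 1040 RPKM in the same order, and the median of all 11085 tested genes at 2.99, 2.84, 11.7 and 12.5.

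The highest mean level belonged to RPL37A, a zinc-finger protein of the large subunit. Its level was 1929 RPKM in control 1, 1656 in ISL1 1, 2584 in control 2 and 3436 in ISL1 2, the order used below. RPS18, of the small subunit head, stood at 2212, 1744, 2256 and 2344 RPKM, and RPS27 at 1737, 1577, 2813 and 2464. RPS2 and RPS12, both of the small subunit, came next, at 1394 to 2315 and 1603 to 1983 RPKM. These 5 genes were high in all 4 libraries. The single highest value was that of RPL41, which encodes the shortest ribosomal protein, at 3982 RPKM in the second control, although it stood at 481 RPKM in the first.

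The lowest gene was RPL10L, a paralog of RPL10 known for its role in the testis, at 0.333 and 0.386 RPKM in pair 1 and 1.18 and 1.87 in pair 2. These values rested on 9, 12, 34 and 46 reads, and the exact 95% Poisson intervals of the control and ISL1 libraries overlapped in both pairs (counting error only). RPL22L1 (12.1 to 25.1 RPKM) and RPL39L (11.4 to 37.8), paralogs of RPL22 and RPL39, were also among the 5 lowest means. RPL10, also among them, was at or below 1.39 RPKM in replicate 1 and at 249 in replicate 2.

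**Figure D1:**
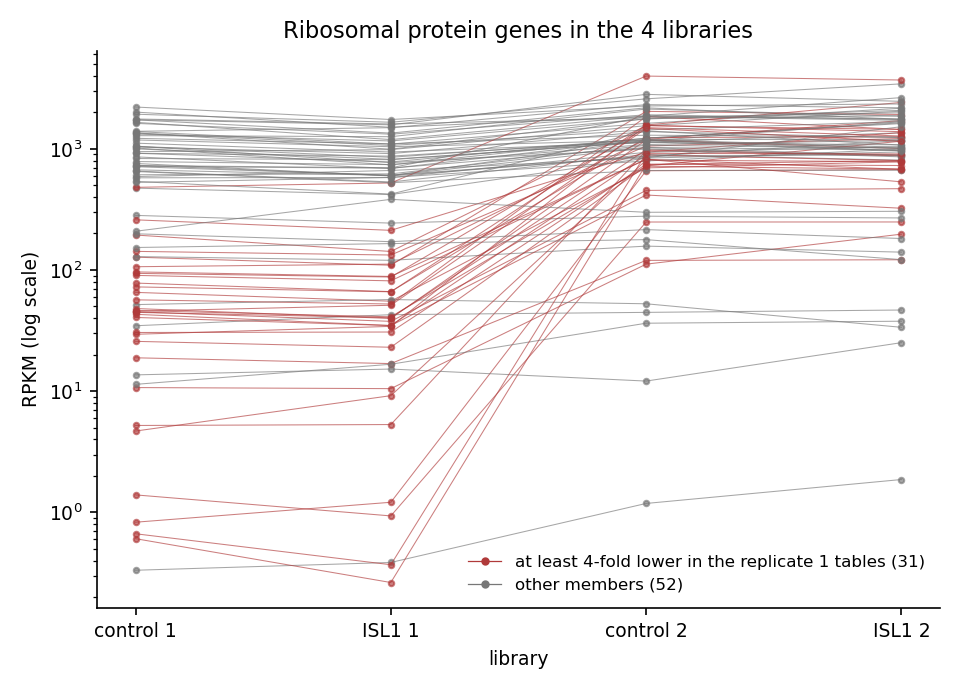
RPKM (log axis) of the 83 ribosomal protein genes listed in all 4 tables, with each gene joined across the 4 libraries. The 31 genes in red stood at least 4-fold lower in the replicate 1 tables, in several cases to below 1 RPKM, while the 52 grey genes moved less.

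These genes differed far more between the replicate numbers than between the viruses. A total of 39 of the 83 stood higher in replicate 2 (limma on log2(RPKM + 1), adjusted p under 0.05), 26 large and 13 small subunit genes, which is 47.0% of them against 50.6% of all tested genes. None was called lower, against 0.631% of all tested genes. These counts depend on the scaling. Scaled by median ratios, 31 were called higher and 38 lower, against 42.2% and 33.2% of all tested genes. Scaled to a common sum per library, 32 were called higher and 11 lower, against 44.7% and 18.2%. The median gene of the group stood 0.74 higher in replicate 2 on the log2 scale as deposited and the median of all tested genes 0.96 higher. Relative to that shift the group's median was lower, and it was -0.67 (all tested genes -0.09) under median ratios and -0.20 (all tested genes 0.31) with a common sum. Each number holds 1 library of each group, and how the tables of a number were made cannot be told apart from how its cells were.

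RPS3, a protein of the mRNA entry channel that is also described in DNA repair, differed most. Its level was 0.666 RPKM with blank virus and 0.369 with ISL1 in replicate 1, against 917 and 908 in replicate 2. The difference was 9.24 on the log2 scale (SE 0.24, n = 2 per replicate number, limma adjusted p = 1.6e-04). Behind the replicate 1 values were 47 reads (exact 95% Poisson interval 34.5 to 62.5) and 30 reads (20.2 to 42.8) over 2187 bases. Behind the replicate 2 values were 26860 and 22837 reads over 855 bases, so the gap in reads was far larger than the change of length.

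RPL10, which sits close to the peptidyl transferase centre, had 105 and 81 reads in replicate 1 and 19906 and 17109 in replicate 2, over 2335 bases in both. Its levels were 1.39 and 0.934 RPKM against 249 and 249. The recovered transcript length of RPL10 was thus the same and the number of reads was not.

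RPL13 stood at 0.829 and 1.21 RPKM in replicate 1 and 659 and 672 in replicate 2, and RPL15 at 5.21 and 5.30 against 965 and 875. RPS10, at the small subunit beak, stood at 4.69 and 9.18 against 807 and 783. RPL6 stood at 29.5 and 34.2 against 1562 and 1385. RPL14, RPLP0 and RPL8 were also among the 10 largest differences, with log2 values of 5.17, 4.88 and 4.80. All 10 had a limma adjusted p of 1.6e-04 or 1.7e-04, and in all 10 both replicate 1 libraries lay below both replicate 2 libraries.

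At the other end, RPS6, the substrate of the S6 kinases, had nearly the same mean level in both replicate numbers as deposited. It stood at 2009 and 1504 RPKM in replicate 1 and at 1855 and 1717 in replicate 2, from 53776, 46307, 52694 and 41901 reads over 829 bases. The replicate ranges overlapped (log2 difference 0.04, SE 0.25, limma adjusted p = 0.92). RPL7L1 (-0.36), RPS27L (-0.11), RPS4X (-0.03) and RPL5 (0.04) were the other genes with the smallest values. RPS4X, RPS27L and RPL7L1 were called lower in replicate 2 under both rescalings (limma adjusted p 0.0058 to 0.023). The small differences of RPL5 and RPS6 are as deposited, and their values under the rescalings are not given here. Median ratios moved the median of the group from 0.74 to -0.67.

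The differences covered a wide range. A total of 31 of the 83 genes stood at least 4-fold lower in replicate 1 (37.3%, against 37% of all tested genes), 21 of 51 large and 10 of 32 small subunit genes. RPL38 was the last gene inside this limit, at 2.26 on the log2 scale, and RPLP1 the first outside, at 1.64.

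Low genes in replicate 1 were mostly those with several annotated transcripts. Of 39 ribosomal protein genes with 1 curated RefSeq mRNA, 2 were low (5.13%), RPL36A among them, against 6.05% of 3257 tested genes of that kind. Of 44 with 2 or more mRNAs, 29 were low (65.9%), against 52.1% of 6942 tested genes. Where 1 recovered transcript length was a whole multiple of the other, both were set to the larger. Transcript length was then the same in both replicate numbers for 57 genes, of which 10 were low. It differed for 26, of which 21 were low. Among those 10 were RPL3, RPL9, RPL10, RPL41 and RPS24. In the 10 the second control held at least 3.84 times the reads of the first, against 0.944 to 3.78 times in the 47 other genes of equal length. At equal length reads differ only by the level and the library depth. This split therefore largely follows from the 4-fold limit and is no separate result. Apart from lengths set to the larger in this way, reads and lengths are the smallest whole numbers that give the RPKM values. A true pair can be a common multiple of them.

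**Figure D2:**
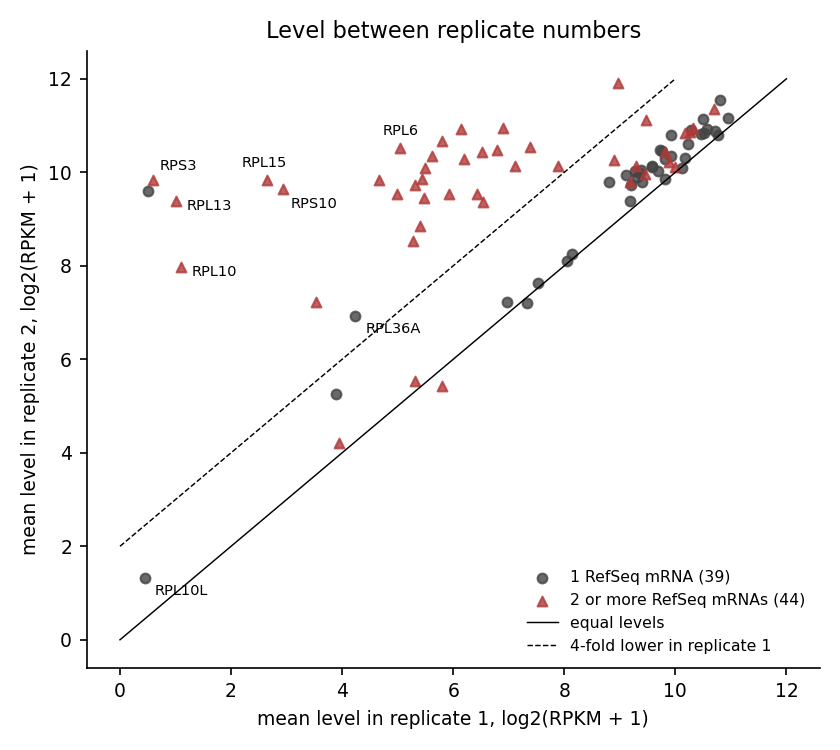
Mean log2(RPKM + 1) of each of the 83 genes in replicate 1 (x axis) and replicate 2 (y axis), marked by the number of curated RefSeq mRNAs. Genes above the dashed line were at least 4-fold lower in replicate 1; 29 of the 31 have 2 or more mRNAs, and RPS3 lies farthest from the solid line of equal levels.

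The subunits differed in summed level by replicate number. The large subunit genes summed to 27415 and 23009 RPKM in pair 1 and to 57266 and 60615 in pair 2 (control, ISL1). The small subunit genes summed to 21586 and 19529 RPKM in pair 1 and to 36396 and 36178 in pair 2. The ratio of large to small was 1.27 and 1.18 in pair 1 and 1.57 and 1.68 in pair 2. Without the 31 low genes, a comparison chosen after seeing the data, the ratio was 1.21, 1.11, 1.22 and 1.27. The low genes alone summed to 2306 and 2140 RPKM in replicate 1 and to 32951 and 32911 in replicate 2.

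With ISL1, the ratio of large to small was lower than in the control in pair 1 and higher in pair 2, with and without the low genes. The median large subunit difference was -0.21 in pair 1 and 0.00 in pair 2 on the log2 scale, and the median small subunit difference -0.13 and -0.06. The subunits therefore stood in opposite order in the pairs, and neither order is replicated. RPKM is relative to library depth and gives no absolute amount. Since cells were measured in bulk, fewer cells with a transcript and a lower share of it per cell cannot be told apart.

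**Figure D3:**
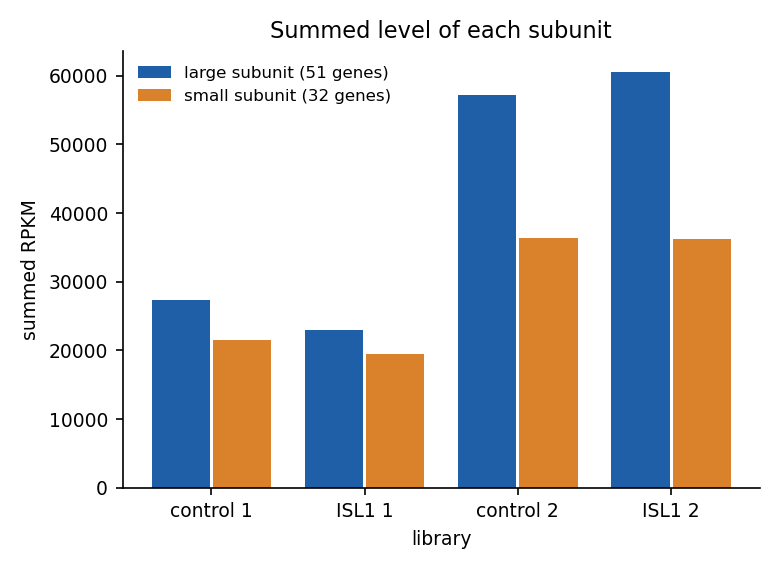
Summed RPKM of the 51 large and 32 small subunit genes in each of the 4 libraries (bars start at 0; 1 library a bar, no error). The large subunit sum was higher than the small in every library, by 1.18 to 1.68 times.

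The comparison of ISL1 with blank virus asks which transcripts differ once the factor is expressed, and no ribosomal protein gene passed its test. limma called 0 of 11085 tested genes at an adjusted p of 0.05, and 15 genes (0.135%) but 0 of the 83 reached an unadjusted p of 0.05. An exact permutation test of 2 libraries against 2 cannot give a p below 0.333. The smallest unadjusted limma p of the group was that of RPS26, at 0.27. What follows gives the 2 pairs side by side, each with 1 library per group and no test.

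In pair 1, 62 of 83 genes (74.7%) stood lower with ISL1, against 50.6% of all tested genes, and 21 higher, against 49.4%, but under median-ratio scaling 36 stood lower and 47 higher (56.6%, against 62.7% of all tested genes). The 62 were 40 of 51 large and 22 of 32 small subunit genes. In pair 2, 44 stood lower (53.0%, against 45.4%) and 39 higher (47.0%, against 54.6%), and under median-ratio scaling 20 stood higher (24.1%, against 40.2% of all tested genes). The median of the group was -0.16 in pair 1 (SD across genes 0.25) and -0.04 in pair 2 (SD 0.32), beside -0.00 and 0.06 for all tested genes. With median ratios those values were 0.04 and -0.25 for the group, beside 0.09 and -0.12 for all tested genes. In both pairs and under both scalings the group's median lay below that of all tested genes.

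On the log2(RPKM + 1) scale 0 of the 83 genes differed by 2-fold or more in either pair, a size reached by 1.71% (higher) and 2.36% (lower) of all tested genes in pair 1 and by 6.49% and 3.68% in pair 2. RPL22L1 came nearest, at 1.00 in pair 2, and its RPKM values alone stood 2.08-fold apart there. With median ratios RPS10 (1.07) and RPS26 (1.07) passed 2-fold upward in pair 1, against 3.24% of all tested genes. Differences of 1.5-fold or more upward were seen for 2 genes in pair 1, RPS10 and RPS26 (background 5.99%), and for 5 in pair 2, RPL8, RPL14, RPL22L1, RPL28 and RPS15 (background 17.8%). Downward there were 0 in pair 1 (background 7.03%) and 2 in pair 2, RPL7L1 and RPS29 (background 12.3%). Levels of the 83 genes in the ISL1 and control libraries of a pair followed each other with Pearson r of 0.997 and 0.983 across genes.

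Both pairs gave the same sign for 45 genes. A total of 34 stood lower in both (41.0%, against 19.1% of all tested genes) and 11 higher in both (against 23.1%). The 11 were RPL10L, RPL13, RPL18, RPL22L1, RPL26L1, RPL35, RPL39L, RPS15, RPS19, RPS26 and RPS28. A further 28 were lower in pair 1 and higher in pair 2 (background 31.5%), and 10 the reverse (background 26.3%). With median ratios 28 stood lower (against 18.4% of all tested genes) and 12 higher in both (against 21.3%), and with a common sum 39 lower (against 20.7%) and 9 higher (against 21.6%).

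**Figure D4:**
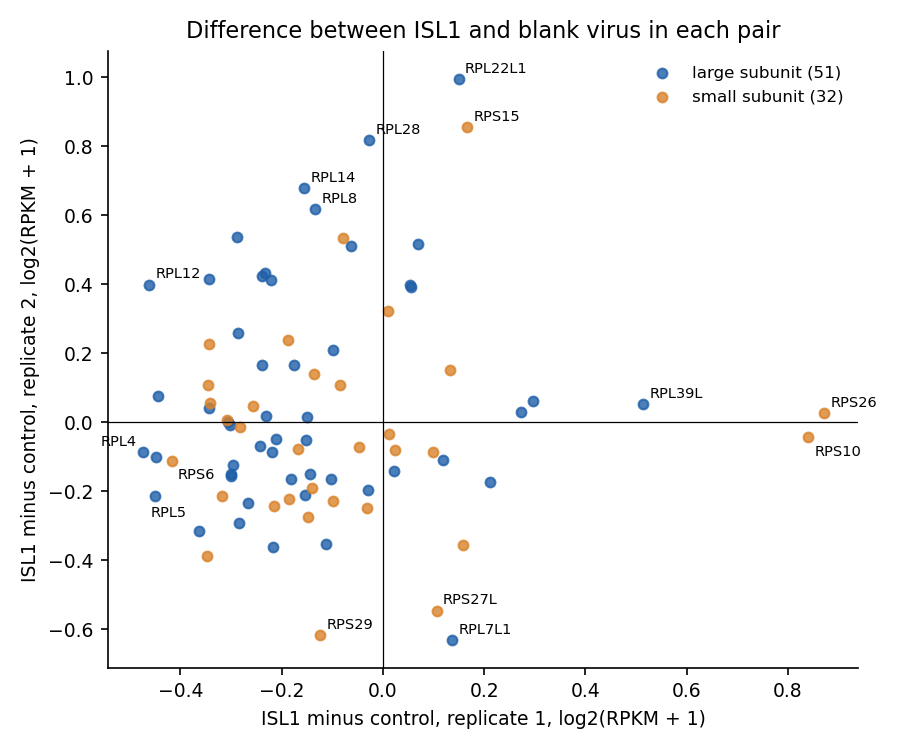
Difference between ISL1 and blank virus on the log2(RPKM + 1) scale in pair 1 (x axis) and pair 2 (y axis) for 51 large and 32 small subunit genes. Points lie mostly left of 0, with RPS26 and RPS10 apart on the right and RPL22L1 and RPS15 at the top; no gene is at an extreme of both axes.

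Both ISL1 libraries stood above both controls for RPL22L1 and RPS26 (background 5.52%), and below both for RPL5, RPL22, RPL35A, RPS4X, RPS6 and RPS23 (background 5.08%). Which genes these are depends on the scaling. With median ratios there were 0 above and RPS3A alone below, against 259 and 227 of all 11085 tested genes. With a common sum RPL35, RPS15 and RPS28 stood above and RPL21 below, against 384 and 359 of all tested genes. RPS26, which contacts the mRNA at the exit channel and is a Diamond-Blackfan anemia gene, had levels of 209 and 383 RPKM in pair 1 and of 299 and 305 in pair 2 (control, ISL1). The groups did not overlap as deposited, but the log2 difference was 0.87 in pair 1 and 0.03 in pair 2, where median ratios gave -0.18 and a common sum -0.02. The pooled value was 0.45 (SE 0.34, 2 libraries against 2, limma adjusted p = 1.00). RPS26 has many processed pseudogenes, and how the authors placed reads shared with them is not given in the sources used here.

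RPL22L1, the paralog that shares targets with RPL22, stood at 13.6 and 15.2 RPKM in pair 1 and at 12.1 and 25.1 in pair 2. Pooled, the log2 difference was 0.57 (SE 0.46, 2 libraries against 2, limma adjusted p = 1.00). Its parent RPL22 stood at 282 and 244 RPKM in pair 1 and at 278 and 269 in pair 2. The paralog was thus higher and the parent lower with ISL1 in both pairs, as deposited and under both rescalings.

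The 6 tested paralogs stood higher in pair 1 (1 library per group), at 0.06 to 0.51 on the log2 scale, against 49.4% of all tested genes. In pair 2, 4 stood higher (RPL10L, RPL22L1, RPL26L1, RPL39L), against 54.6%, and 2 lower (RPL7L1, RPS27L), at -0.63 to 1.00. With median ratios all 6 stood higher in pair 1, against 62.7% of all tested genes. In pair 2 RPL10L and RPL22L1 alone stood higher at that scaling, against 40.2%. RPL39L, described in the testis and in tumour cells, went from 11.4 to 16.7 RPKM in pair 1 and from 36.4 to 37.8 in pair 2. RPL26L1 went from 34.7 to 42.8 and from 44.7 to 46.7. RPS27L, a p53 target, went from 153 to 165 in pair 1 and from 178 to 122 in pair 2, and RPL7L1 from 51.8 to 57.0 and from 52.6 to 33.6. For RPS27L and RPL7L1 the pairs gave opposite signs.

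RPL5 and RPL11 bind the 5S ribosomal RNA and, when free, restrain MDM2. RPL5 stood at 1051 and 769 RPKM in pair 1 and at 995 and 858 in pair 2 (pooled log2 difference -0.33, SE 0.32, 2 libraries against 2, limma adjusted p = 1.00). RPL11 stood at 78.0 and 66.3 RPKM in pair 1 and at 1238 and 1254 in pair 2. RPL5 stood lower with ISL1 in both pairs under every scaling, and the values of RPL11 differed mainly by replicate number.

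Of the 4 stalk genes, 3 stood in opposite directions in the pairs as deposited. RPLP1 stood at 727 and 696 RPKM in pair 1 and at 1855 and 2645 in pair 2, RPLP2 at 712 and 605 and then at 866 and 1169. RPL12, at the base of the stalk, stood at 1015 and 737 RPKM in pair 1 and at 1225 and 1616 in pair 2. RPLP0, the scaffold of the stalk, stood at 56.7 and 52.4 RPKM and then at 1845 and 1443, lower with ISL1 in both pairs as deposited. In pair 2, under every scaling, the scaffold and the proteins bound to it therefore stood on opposite sides.

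The other genes with the largest differences in pair 1 were RPL4 (1656 to 1191 RPKM), RPL3 (194 to 142) and RPL26 (1351 to 992), all lower with ISL1. In pair 2, RPL4 went from 1863 to 1754, RPL3 from 1551 to 1446 and RPL26 from 1776 to 1874, so RPL26 turned its sign, though not with median ratios. RPS10 went from 4.69 to 9.18 RPKM in pair 1, on 123 reads (exact 95% Poisson interval 102 to 147) and 277 reads (245 to 312). In pair 2 it went from 807 to 783, so its largest difference lay where it had few reads. RPL13 went from 0.829 to 1.21 RPKM in pair 1, on 125 and 210 reads, and from 659 to 672 in pair 2.

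In pair 2, RPS15, near the decoding centre, went from 841 to 1522 RPKM, and in pair 1 from 590 to 662. RPL28 went from 112 to 197 in pair 2 and from 10.7 to 10.5 in pair 1. RPL14 went from 722 to 1156 in pair 2 and from 25.8 to 23.0 in pair 1. RPL8, at the peptidyl transferase centre, went from 1572 to 2414 in pair 2 and from 72.5 to 66.0 in pair 1. Of these 4, RPS15 alone stood higher in both pairs as deposited, and with median ratios all 4 did.

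RPS29 went from 819 to 534 RPKM in pair 2 and from 96.4 to 88.4 in pair 1. RPS3A went from 1405 to 1074 in pair 2 and from 538 to 423 in pair 1. RPL34 went from 416 to 323 in pair 2 and from 40.6 to 34.8 in pair 1. All 3 stood lower with ISL1 in both pairs, except that RPS29 stood at 0.07 in pair 1 with median ratios.

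Among the genes whose ISL1 libraries lay below both controls, RPS6 had a pooled log2 difference of -0.26 (SE 0.38, 2 libraries against 2, limma adjusted p = 1.00). RPS23, of the decoding centre, stood at 199 and 171 RPKM in pair 1 and 215 and 182 in pair 2. RPS4X stood at 1183 and 1040 and at 1173 and 1006, and RPL35A, a Diamond-Blackfan anemia gene, at 1113 and 940 and at 1129 and 1076. The 9 Diamond-Blackfan anemia genes together had medians of -0.24 in pair 1 and 0.02 in pair 2, with 3 lower and 2 higher in both pairs. With median ratios the medians were -0.04 and -0.19, with 6 lower and 1 higher, and with a common sum -0.24 and -0.02, with 4 lower and 1 higher.

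As deposited, the sign in pair 2 went with base composition. Ribosomal protein genes with a GC content above the group's median of 50.4% (GENCODE 29 transcripts) had a median difference of 0.11 in pair 2, with 26 higher and 15 lower. Those at or below it had a median of -0.11, with 13 higher and 29 lower. With median ratios 20 of the 83 genes stood higher in pair 2, and counts by GC content at that scaling are not given here. Across the 83 genes, GC content and the pair 2 difference had a Pearson r of 0.39 and a Spearman rho of 0.41, against -0.18 and -0.21 over 10501 tested genes. In pair 1 the values were 0.16 and 0.23, against 0.03 and 0.06. Genes share their libraries and are not independent, and the part of base composition in the differences was not tested. The 5 genes at least 1.5-fold higher in pair 2 included both the lowest GC content of the group, 39.3% in RPL22L1, and some of the highest, 62.2% in RPL8 and 62.1% in RPS15.

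**Figure D5:**
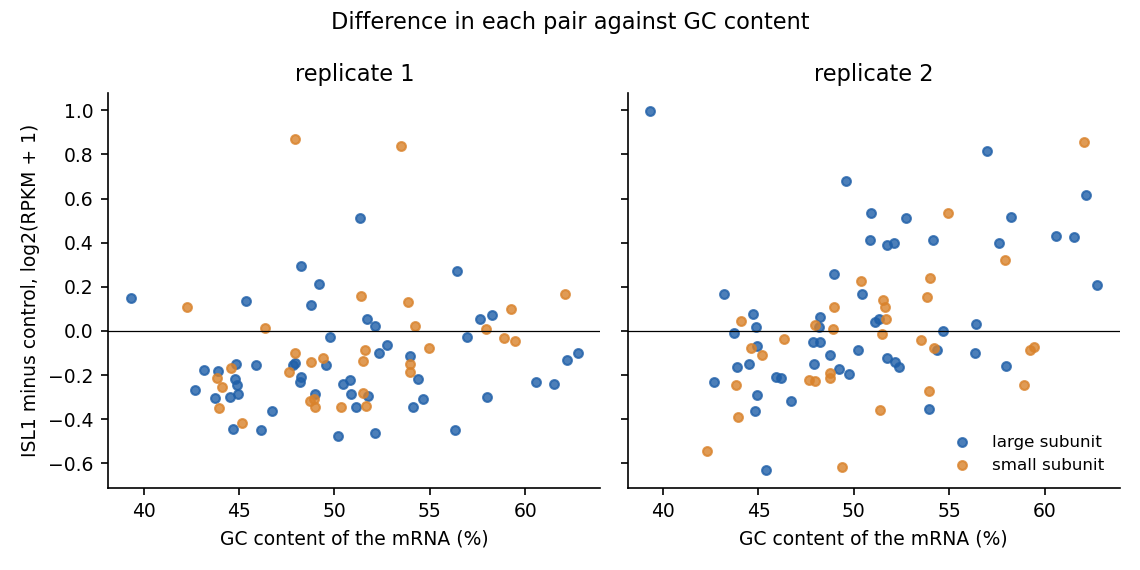
Difference between ISL1 and blank virus on the log2(RPKM + 1) scale against GC content of the mRNA, for pair 1 (left) and pair 2 (right), large and small subunit genes. In pair 2 genes of higher GC content lie higher (r 0.39 over 83 genes), with RPL22L1 apart at the upper left; in pair 1 the spread shows less of a slope (r 0.16).

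The other genes of the translation machinery were read against the same background, 23.1% of all tested genes higher and 19.1% lower in both pairs, and none passed limma. Of 4 cytosolic ribosome components whose symbols the rule does not match, 2 stood higher and 1 lower in both pairs. RPL36AL, a copy of RPL36A, went from 325 to 434 RPKM and from 333 to 416, with both ISL1 libraries above both controls as deposited but under neither rescaling. GNB2L1 (RACK1), a scaffold on the small subunit, went from 1207 to 977 and from 1218 to 1106. RPL36A itself went from 18.8 to 16.9 and from 120.0 to 121.

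Of 59 tested ribosome biogenesis factors, 26 stood higher and 2 lower with ISL1 in both pairs, with medians of 0.16 and 0.17, which were 0.36 and -0.04 under median-ratio scaling, with 23 higher and 2 lower in both. BRIX1, a large subunit assembly factor, went from 81.1 to 95.5 RPKM and from 59.1 to 107. MPHOSPH10, of the small subunit processome, went from 26.8 to 33.3 and from 17.7 to 38.3. DDX10, an RNA helicase, went from 12.5 to 15.4 and from 9.56 to 20.7. The biogenesis factors thus had higher medians than the ribosomal proteins in each pair, and the difference between the lists was not tested.

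Of 36 RNA polymerase I and III genes, 10 stood higher and 3 lower in both pairs. GTF3A, the factor that binds the 5S RNA gene, went from 22.9 to 38.8 RPKM and from 21.6 to 36.1. Of 36 initiation factors, 9 stood higher and 7 lower in both pairs. EIF4B went from 218 to 156 RPKM and from 208 to 107, and EIF3E from 281 to 166 and from 196 to 148. Of 10 elongation factors, 4 stood higher and 3 lower, and EEF1A1, which brings aminoacyl-tRNA to the ribosome, went from 4822 to 3090 RPKM and from 3698 to 2735. Of 5 tested release and recycling factors, 3 stood higher and 0 lower, among them PELO (16.6 to 17.4 and 14.8 to 33.2 RPKM). With median ratios the numbers higher and lower in both pairs were 9 and 4 for the polymerases, 10 and 7 for initiation, 3 and 2 for elongation and 2 and 0 for release.

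EIF4B, EIF3E and EEF1A1 belong to the 11 genes outside the ribosome whose mRNAs are known to carry a TOP tract, of which 6 stood lower and 2 higher in both pairs. Their medians were -0.46 and -0.05, beside -0.16 and -0.04 for the ribosomal protein genes. With median ratios they were -0.26 and -0.27, beside 0.04 and -0.25, with 6 lower and 1 higher in both pairs. Of 19 genes of mTOR signalling, S6 kinases and other regulators of translation or growth, 5 stood lower and 1 higher in both pairs, but with median ratios 2 stood lower and 3 higher. RPS6KA3, an S6 kinase of the ERK pathway, went from 97.9 to 106 RPKM and from 112 to 50.8, and EIF4EBP2 from 24.0 to 27.3 and from 28.2 to 12.3. RHEB, the activator of mTOR, went from 67.2 to 63.6 and from 61.5 to 113. For these 3 genes the pairs gave opposite signs.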

How the data were processed

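Per the labels' protocols, RNA was purified by a Qiagen kit before Illumina library preparation. The authors deposited 1 table of RPKM per library. The submitters' processing notes name hg19, BWA and CASAVA 1.4, with no annotation or counting program. The replicate 1 tables listed 16640 genes and those of replicate 2 listed 17197, with 14055 in common, and held 0.0001 and 0 as their lowest values, so the replicate numbers were processed differently.

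The 11085 genes listed in every table that reached 1 RPKM in 2 or more libraries were tested with limma 3.58.1 in R 4.3.3 (eBayes with trend) on log2(RPKM + 1), two-sided, with Benjamini-Hochberg adjustment over all of them. The fit had 2 residual degrees of freedom and was tested on simulated data. Fold changes on this scale understate low genes. Depths were the largest tried that kept most lengths of low genes whole (78.3% in replicate 1 and 63.1% in replicate 2). At these depths, whole reads and lengths up to 20000 bases were found for 99.9% of genes above 0 in both replicate 1 libraries. No count model was run. RefSeq mRNA numbers matched 92.0% of tested genes by symbol and GC content 94.7%. Python 3.11.15, NumPy 2.4.6, pandas 2.3.3 and matplotlib 3.10.9 were used.

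Members, lists and tests were chosen with earlier results of these data known. Named genes were the 5 highest and 5 lowest means, the 5 largest differences each way in each pair and between replicate numbers, members past a test (up to 10), paralogs, stalk and 5S proteins, genes whose groups did not overlap, and up to 3 of each other list by limma p. Other genes were named after their values were seen, to complete a count or beside a paralog. Some genes that this rule takes are left out of the text.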

Additional observations from a re-analysis of the deposited data

How the results depend on the processing

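Across 431 alternatives for 52 results, 396 were counted as unchanged, 29 moved and 6 came to pass the threshold in the same direction. None of the last were for ISL1. Unchanged meant the same side of the threshold or a value close to the main one. For genes not called between replicate numbers it also took in a turned sign, whatever the side of the threshold. Leaving out single libraries gave RPL5 -0.19 to 0.26 and RPS6 -0.17 to 0.25, so their signs turned. Median-ratio scaling moved the most. It gave 69 members called between replicate numbers (39 as deposited) with a median of -0.67, which was -0.20 with a common sum per library. In pair 1 it gave a member median of 0.037, with 47 higher and 36 lower, and in pair 2 a median of -0.25 with 20 higher. For pair 1 and pair 2 it gave medians of 0.32 and -0.0053 for the components outside the rule, 0.36 and -0.15 for elongation, 0.36 and -0.039 for biogenesis, 0.27 and -0.090 for polymerases, and -0.037 for initiation in pair 2. The cause was not tested.

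Leaving out each library in turn gave 5205 to 5977 genes and 34 to 38 members called between replicate numbers, and a member median of 0.63 to 0.90; for ISL1 it gave 0 to 0 calls. The difference between the large and small subunit medians ran from -0.22 (without the second ISL1 library) to 0.41 (without the first), so single libraries set its sign. With the replicate number as a block, limma called 0 genes for ISL1, and 260 genes but 0 members reached an unadjusted p of 0.05. Deviations of same-numbered libraries had r 0.88, but with 2 pairs and no label a pairing is not established. With 2 libraries a group and tables made differently by number, small differences between the viruses were not detectable here.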

Other observations

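Noncoding hosts of small nucleolar RNAs, whose transcripts are also known to begin with TOP tracts, were listed only in the replicate 1 tables, so each has 1 library per group and no test. GAS5, the best known of them, stood at 468 RPKM in the control and 138 in the ISL1 library. SNHG5 stood at 230 and 146, SNHG6 at 162 and 104, SNHG8 at 25.8 and 16.0 and EPB41L4A-AS1 at 10.4 and 3.45. SNHG1 stood at 174 and 157. SNHG7 (15.6 and 20.7) and SNHG12 (17.2 and 19.9) stood higher in the ISL1 library. The 8 listed genes summed to 1102 RPKM in the control and 605 in the ISL1 library.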
